A study of Mus musculus with 12 samples.

Results

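The circadian output transcription factors described here are 8 genes, Dbp, Tef, Hlf, Ciart, Nfil3, Bhlhe40, Bhlhe41 and Rora, of 19505 genes measured in mouse heart. Their probe sets were selected by gene symbol, and where a gene had several probe sets the one with the highest mean was read. Of the 8 genes, 7 had 1 probe set and Rora had 3. Myocardium labelled as taken at 6 months was profiled on 12 single-colour arrays, 1 per mouse, with 4 mice in each of 3 groups. The NC mice were given vehicle intraperitoneally on 5 days. The DM mice were given streptozotocin, which destroys the insulin-producing beta cells, on 5 days, and entered the study if fasting glucose reached 16.7 mM after 2 weeks. The DM_AngIV mice received the same streptozotocin and were then given angiotensin IV, labelled high-dose, by infusion between weeks 8 and 24, at 2.88 mg/kg/day. Angiotensin IV is a peptide cut from angiotensin II. Both diabetic groups thus carry the streptozotocin treatment, and no vehicle mice were infused with angiotensin IV. No infusion was recorded for the DM mice, so the peptide and the infusion procedure cannot be told apart in DM_AngIV against DM. Strain, sex, the age at injection and the clock time of heart removal were not given in the sources used here.

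In mammals the transcription factors CLOCK and BMAL1 (encoded by Arntl) bind E-box elements and switch on repressors that later silence them, which gives a daily cycle in nearly every tissue, the heart among them. The genes described here stand at the edge of that loop. Dbp, Tef and Hlf encode the PAR bZIP activators, which bind D-box elements, and Nfil3 encodes the repressor of the same element. Ciart and the basic helix-loop-helix proteins Bhlhe40 (DEC1) and Bhlhe41 (DEC2) repress transcription driven by CLOCK and BMAL1, while Rora encodes a nuclear receptor that activates genes with a ROR element, Arntl among them, against the repressors Nr1d1 and Nr1d2. Since these transcripts rise and fall through the day, the hour of sampling sets their level, and its part in the differences below was not tested.

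The promoter stretches that hold a match to an element of the loop are printed here. They show which of these genes have a canonical E-box or the core letters of a ROR element close to a start site. RefSeq promoter windows (GRCm38.p6, 250 bases before to 50 bases after a start site) were found by symbol for 7 of the 8 genes, 8 windows in all, and Bhlhe40 had no entry. Each window was searched on both strands for the E-box CACGTG, the D-box TTANGTAA and the ROR element cores TAGGTCA and TGGGTCA. The cores are only part of a ROR element. No match overlapped another. Capitals mark the matches.
Tef, chr15:81802423-81802672, plus strand: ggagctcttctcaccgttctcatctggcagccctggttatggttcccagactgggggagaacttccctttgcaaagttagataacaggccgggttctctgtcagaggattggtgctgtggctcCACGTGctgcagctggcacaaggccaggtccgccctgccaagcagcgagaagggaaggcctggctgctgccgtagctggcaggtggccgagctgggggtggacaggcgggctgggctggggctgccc
Tef, second start site, chr15:81811264-81811293, plus strand: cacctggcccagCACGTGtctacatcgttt
Ciart, chr3:95882258-95882478, minus strand: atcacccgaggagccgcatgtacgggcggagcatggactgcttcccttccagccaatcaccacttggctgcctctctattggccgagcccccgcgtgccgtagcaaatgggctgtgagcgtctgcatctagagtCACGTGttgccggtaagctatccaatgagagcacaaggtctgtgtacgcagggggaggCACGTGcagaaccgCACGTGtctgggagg
Bhlhe41, chr6:145865421-145865670, minus strand: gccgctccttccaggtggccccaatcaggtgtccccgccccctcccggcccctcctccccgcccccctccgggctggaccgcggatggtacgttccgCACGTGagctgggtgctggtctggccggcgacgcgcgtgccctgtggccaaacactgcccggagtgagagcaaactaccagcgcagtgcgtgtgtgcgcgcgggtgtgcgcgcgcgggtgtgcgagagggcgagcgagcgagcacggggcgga
Nfil3, chr13:52981033-52981062, minus strand: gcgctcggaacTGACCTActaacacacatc
Ciart held 3 E-boxes, which began 116, 58 and 44 bases before the start site. Tef held 1 in each of its windows, 127 and 138 bases before the start, and Bhlhe41 held 1 at 153 bases. Of all 32817 windows in the reference, 7.15% held this E-box. Nfil3 held the ROR element core TAGGTCA, printed as its reverse complement 12 bases before a start site inside the gene. Of all windows, 6.46% held such a core. No member window held the D-box, which was in 2.32% of all windows, and the windows of Dbp, Hlf and Rora held none of these letters. A match is a description of the letters and shows neither binding nor regulation.

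The genes lie at chr7:45705100-45710203 (Dbp), chr15:81802673-81826863 (Tef), chr11:90336535-90390917 (Hlf), chr3:95878500-95882257 (Ciart), chr13:52967209-52982878 (Nfil3), chr6:108660629-108666925 (Bhlhe40), chr6:145858243-145865420 (Bhlhe41) and chr9:68653404-69388246 (Rora) in GRCm38.p6. Values are log2 expression, and a difference of 1 is a doubling. A gene was taken as above background on an array when it exceeded 4.96, the 95th percentile of 246 reporter control probe sets. A gene was called changed at an adjusted p below 0.05 with limma over all 19505 genes. The tissue label was borne out by its markers, with 8 of 8 cardiomyocyte markers above background on every array. Myl7, the atrial myosin light chain, was above background on 5 arrays (NC replicates 1 and 3, DM replicates 1, 2 and 4), at 7.90 to 10.08, and on no DM_AngIV array. The mean of the 7 atrial markers ranged over 5.01 to 7.54 in NC, 4.65 to 7.31 in DM and 4.99 to 5.29 in DM_AngIV, and of these Bmp10 and Nr2f1 were above background on no array. Of 9 macrophage and monocyte markers, 9 were above 0 in DM against NC and in DM_AngIV against NC, with 0 called by limma. Their mean ranged over 5.59 to 5.77 in NC, 5.63 to 6.70 in DM and 5.75 to 6.36 in DM_AngIV, and their part in the values below was not tested.

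The diabetic hearts held more Tef transcript than the control hearts, and Tef was the only one of the 8 genes called in any comparison. Ciart, Dbp and Rora had positive differences that did not pass, and those of Nfil3, Bhlhe40, Bhlhe41 and Hlf against NC lay between −0.17 and 0.48. Over the 8 genes the median difference was 0.34 in DM against NC, where the median over all genes was −0.0010. The median was 0.52 in DM_AngIV against NC (all genes −0.0070). Quantile normalization tends to hold the median over all genes near 0, whatever the size of the changes. In size alone the medians were 0.34 and 0.52, against 0.11 and 0.13 over all genes. Of the 8 genes, 7 also varied more between mice of a group than most genes. The direction was above 0 for 7 of the 8 in DM and for 8 of 8 in DM_AngIV, against 49.8% and 48.5% of all genes. In all diabetic mice against NC it was above 0 for 7 of the 8, against 49.4% of all genes. Hlf in DM (0.057) and Nfil3 in DM_AngIV (0.053) were close to 0, and their signs turned under some alternatives. The sign of Rora in DM depended on the probe set. The 8 genes were read in the same mice and some correlate, so these are not counts of independent genes.

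**Figure D1:**
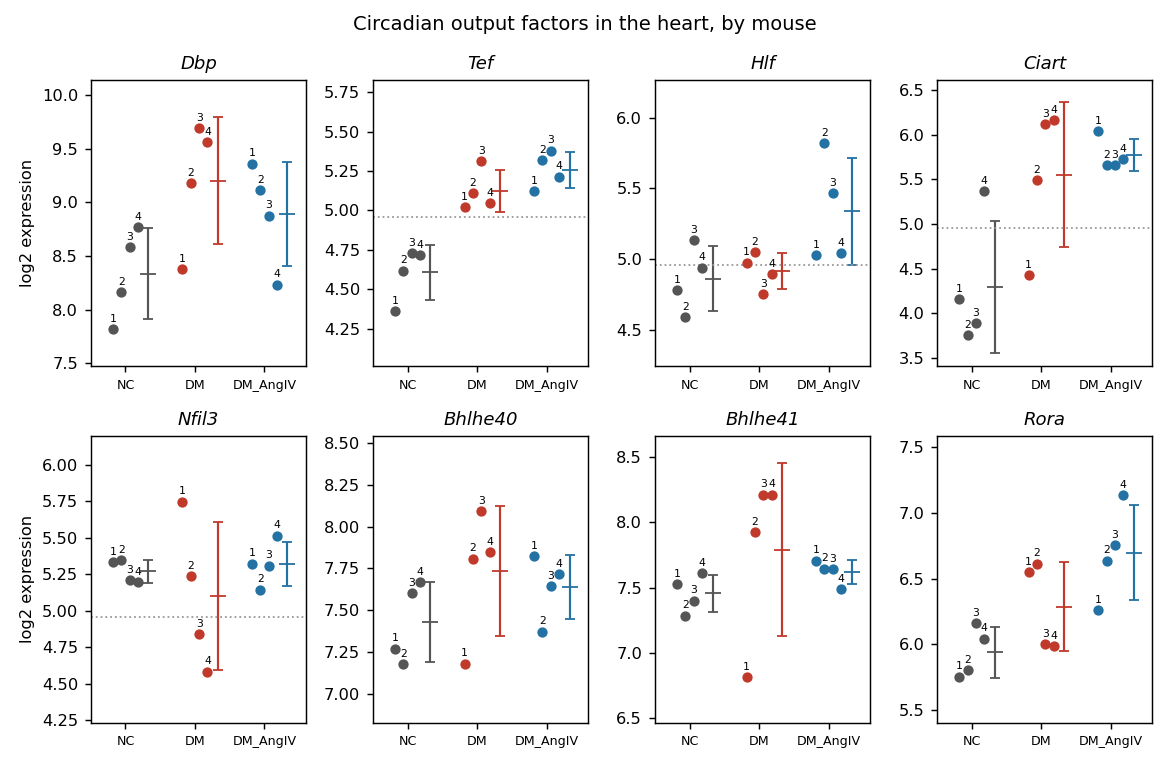
Log2 expression of the 8 circadian output factors in each mouse, grouped as NC, DM and DM_AngIV, with points numbered by replicate, bars for mean ± SD (n = 4) and a dotted line at the background percentile of 4.96 where it falls within the panel. All Tef points of both diabetic groups lie above the 4 NC points, while the DM points of Bhlhe41 and Nfil3 spread widely.

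Tef encodes thyrotroph embryonic factor, a PAR bZIP activator. Its level was 4.36, 4.62, 4.73 and 4.72 in NC replicates 1 to 4, 5.02, 5.11, 5.31 and 5.04 in DM, and 5.12, 5.32, 5.38 and 5.21 in DM_AngIV. No NC array was above background and all 8 diabetic arrays were, so the groups did not overlap. In DM_AngIV against NC, Tef was higher by 0.65 ± 0.11 (SE, n = 4 each; limma adjusted p = 0.0128), at least 1.23-fold. Its difference in DM against NC was 0.51 ± 0.11 (limma adjusted p = 0.152), which did not pass, although all 4 DM mice lay above all 4 NC mice (two-sided exact permutation p = 0.0286, the smallest that 4 against 4 mice can give). All 8 diabetic mice together exceeded NC by 0.58 ± 0.10 (limma adjusted p = 0.0182; exact permutation p = 0.00202), at least 1.17-fold. In a heart sample, more cells of a type that expresses a gene and more RNA per cell cannot be told apart.

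Tef's call was lost without some single mice and without the arrays with atrial signal. In DM_AngIV against NC the limma adjusted p was 0.05001 without DM_AngIV replicate 3, just above the threshold. With the atrial-signal arrays omitted the difference was 0.59 and the adjusted p 0.124, and the latter was 0.0310 with the atrial markers as a covariate. In all diabetic mice against NC the limma adjusted p was 0.0622, 0.0576 and 0.0505 without NC replicates 1, 2 and 3 and 0.352 with the atrial-signal arrays omitted, when only 1 DM array remains. Over all alternatives the difference stayed between 0.56 and 0.70 in DM_AngIV against NC and between 0.50 and 0.62 in all diabetic mice against NC.

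Dbp, the D-box binding activator whose gene is a direct E-box target of CLOCK and BMAL1, was at 7.82, 8.17, 8.58 and 8.77 in NC replicates 1 to 4. It was at 8.38, 9.18, 9.69 and 9.56 in DM and at 9.36, 9.11, 8.88 and 8.23 in DM_AngIV. The groups overlapped, with DM replicate 1 and DM_AngIV replicate 4 inside the NC range. The difference was 0.87 ± 0.29 in DM against NC (SE; 95% interval 0.26 to 1.47; limma adjusted p = 0.372) and 0.56 ± 0.29 in DM_AngIV against NC (limma adjusted p = 0.388). Neither passed over all genes. Hlf, hepatic leukemia factor, had a range of 4.59 to 5.14 in NC, 4.75 to 5.05 in DM and 5.03 to 5.82 in DM_AngIV, and only the last group was above background on every array. Its difference was 0.057 in DM against NC and 0.48 in DM_AngIV against NC (limma adjusted p = 0.962 and 0.194).

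Nfil3, the repressor that competes for the D-box, was at 5.33, 5.35, 5.21 and 5.20 in NC replicates 1 to 4. In DM it was at 5.75, 5.24, 4.84 and 4.58, and in DM_AngIV at 5.32, 5.15, 5.31 and 5.51. The DM mice thus lay on both sides of NC, with replicate 1 highest and replicates 3 and 4 lowest, while the NC mice spanned 0.15 and the DM mice 1.16. The mean difference was −0.17 in DM against NC and 0.053 in DM_AngIV against NC (limma adjusted p = 0.853 and 0.936).

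Ciart, also called Chrono, is a repressor that acts on the BMAL1 complex. Its level was 4.16, 3.76, 3.89 and 5.37 in NC replicates 1 to 4, 4.43, 5.50, 6.12 and 6.16 in DM, and 6.04, 5.66, 5.66 and 5.73 in DM_AngIV. In NC only replicate 4 was above background, and it lay above DM replicate 1, so DM and NC overlapped, whereas all 4 DM_AngIV mice exceeded all 4 NC mice. The difference was 1.26 ± 0.36 in DM against NC (SE; limma adjusted p = 0.295). It was 1.47 ± 0.36 in DM_AngIV against NC (95% interval 0.72 to 2.23; limma adjusted p = 0.0621), past the threshold only under some alternatives. Since 3 of the 4 NC arrays were not above background, the size of these differences is uncertain and no fold is given. Without NC replicate 4, when no NC array is above background, the second comparison passed (limma adjusted p = 0.0237).

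Bhlhe40 and Bhlhe41, partly redundant E-box repressors, overlapped between groups in every comparison. Bhlhe41 was at 7.53, 7.29, 7.40 and 7.61 in NC replicates 1 to 4, 6.82, 7.93, 8.21 and 8.21 in DM, and 7.71, 7.65, 7.64 and 7.49 in DM_AngIV. DM replicate 1 was the lowest and DM replicates 2, 3 and 4 the highest of the 12 mice, a range of 1.39 within DM against 0.33 in NC and 0.22 in DM_AngIV. Bhlhe40 ranged over 7.18 to 7.67 in NC, 7.18 to 8.09 in DM and 7.37 to 7.82 in DM_AngIV, and DM replicate 1 was again the lowest DM mouse. The differences in DM against NC were 0.30 for Bhlhe40 and 0.33 for Bhlhe41 (limma adjusted p = 0.661 and 0.724). Without DM replicate 1 they were 0.49 and 0.66, and without DM replicate 3 they were 0.18 and 0.19. Without DM replicate 4 Bhlhe41 was also at 0.19.

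Rora encodes the receptor RORα, an activator of Arntl. Its level was 5.75, 5.80, 6.16 and 6.04 in NC replicates 1 to 4, 6.55, 6.61, 6.00 and 5.99 in DM, and 6.26, 6.64, 6.75 and 7.14 in DM_AngIV. DM replicates 1 and 2 were above every NC mouse and replicates 3 and 4 within the NC range, while all 4 DM_AngIV mice exceeded NC. The difference was 0.76 ± 0.19 in DM_AngIV against NC (SE; 1.69-fold; limma adjusted p = 0.0675) and 0.35 in DM against NC (limma adjusted p = 0.628). The other Rora probe sets had 0.59 and 0.37 in DM_AngIV against NC, the same side, but 0.070 and −0.17 in DM against NC, so the sign in DM depends on the probe set. Of these the last was dim, with group means of 4.10 to 4.64.

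Against the whole array, 1 of the 8 genes, Tef, was called in DM_AngIV against NC, where 1.02% of all genes were called, and again Tef in all diabetic mice against NC, where 0.631% were. In DM against NC limma called 0 of the 8 and 0.0154% of all genes. At an unadjusted limma p below 0.05 there were 3 of the 8 (Dbp, Tef and Ciart) in that comparison against 8.95% of all genes, and 4 (Tef, Hlf, Ciart and Rora) in DM_AngIV against NC against 14.6%. In all diabetic mice against NC there were 4 (Dbp, Tef, Ciart and Rora) against 13.1%. The groups did not overlap for Tef in DM against NC (4.54% of all genes) and for Tef, Ciart and Rora in DM_AngIV against NC (9.83%), and for Tef in all diabetic mice against NC (1.95%). These comparisons share the NC arrays, so they are not separate evidence.

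Angiotensin IV infusion of diabetic mice, read as DM_AngIV against DM, gave no call among the 8 genes. limma called 0 of them and 0% of all genes, and 2 of the 8, Hlf and Rora, had an unadjusted p below 0.05, against 7.48% of all genes. Hlf differed by 0.42 (95% interval 0.063 to 0.77; limma adjusted p = 0.629) and Rora by 0.41 (0.011 to 0.81; limma adjusted p = 0.660). Dbp differed by −0.31 (−0.91 to 0.30), Tef by 0.14 (−0.11 to 0.38) and Ciart by 0.22 (−0.54 to 0.98; limma adjusted p = 0.83, 0.807 and 0.914). Single mice moved the value of Dbp, which was −0.58 without DM replicate 1, −0.14 and −0.19 without DM replicates 3 and 4 and −0.085 without DM_AngIV replicate 4. Hlf was 0.26 without DM_AngIV replicate 2, and Rora was 0.26 without DM_AngIV replicate 4. Nfil3, Bhlhe40 and Bhlhe41 had values of 0.22, −0.093 and −0.17 (limma adjusted p = 0.810, 0.934 and 0.897). The groups overlapped for every member (5.01% of all genes did not overlap). These intervals leave room for changes of either sign in Dbp, Tef, Ciart, Nfil3, Bhlhe40 and Bhlhe41. The sign for Ciart turned with the atrial markers as a covariate, where its value was −0.17.

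**Figure D2:**
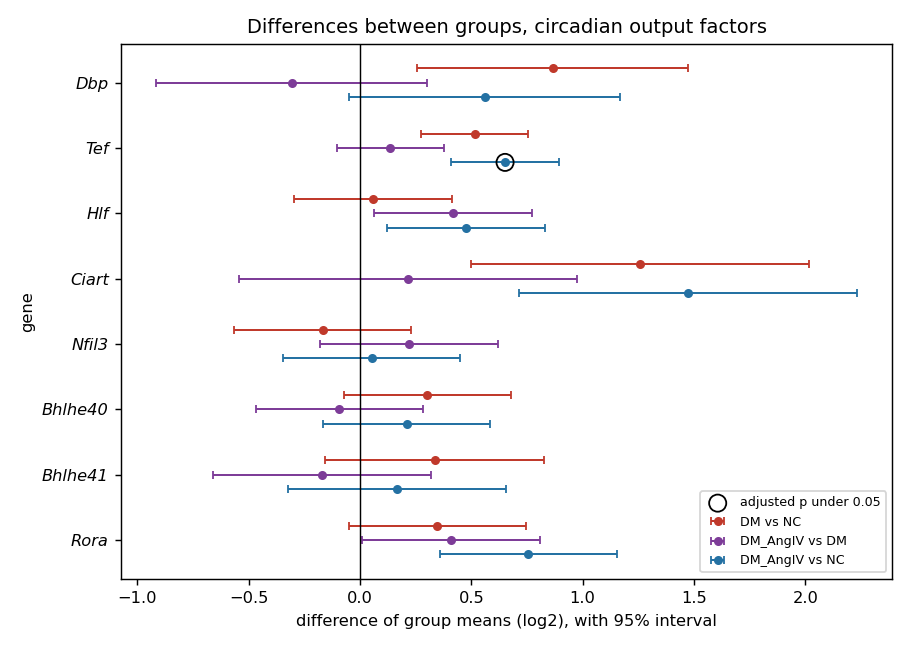
Log2 difference of each circadian output factor in the 2 comparisons with NC and in DM_AngIV against DM, as points with 95% intervals from limma. The interval of Tef lies above 0 in both comparisons with NC, and those of Ciart are the widest.

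Some clock genes that drive or oppose these factors were also called, Arntl in both diabetic groups and others in DM_AngIV. Arntl, which encodes BMAL1, was at 5.72, 5.94, 5.89 and 5.57 in NC replicates 1 to 4, 4.44, 4.21, 4.51 and 4.44 in DM, and 3.52, 3.64, 3.55 and 4.10 in DM_AngIV. No diabetic array was above background and all 4 NC arrays were. Arntl was at least 1.76-fold lower in DM and in DM_AngIV than in NC (limma adjusted p = 0.000752 and 2.53e-06). Nr1d1, a REV-ERB repressor of Arntl and Nfil3, had −0.54 in DM_AngIV against NC (limma adjusted p = 0.295), and its relative Nr1d2 rose by 0.76 (limma adjusted p = 0.00834).

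Of 17 measured genes of the core clock and its regulators, 4 were called higher and 2 lower in DM_AngIV against NC. The repressors Per2 (at least 1.71-fold), Per3 (log2 difference 1.19) and Cry2 (log2 difference 0.61) rose with Nr1d2 (limma adjusted p = 0.00130, 0.00317 and 0.0446). Clock fell by 0.66 in log2 (limma adjusted p = 0.00951) with Arntl. Per1 had 0.49 (limma adjusted p = 0.193), and Cry1 was above background in neither group. Cry1 was 1 of 5 of the 17 genes above background on at most 1 array. In DM against NC only Arntl of the 17 was called. There Per2 was at least 1.19-fold higher in its means, with no NC array above background, and Per3 had 0.82 (limma adjusted p = 0.145 and 0.0985).

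**Figure D3:**
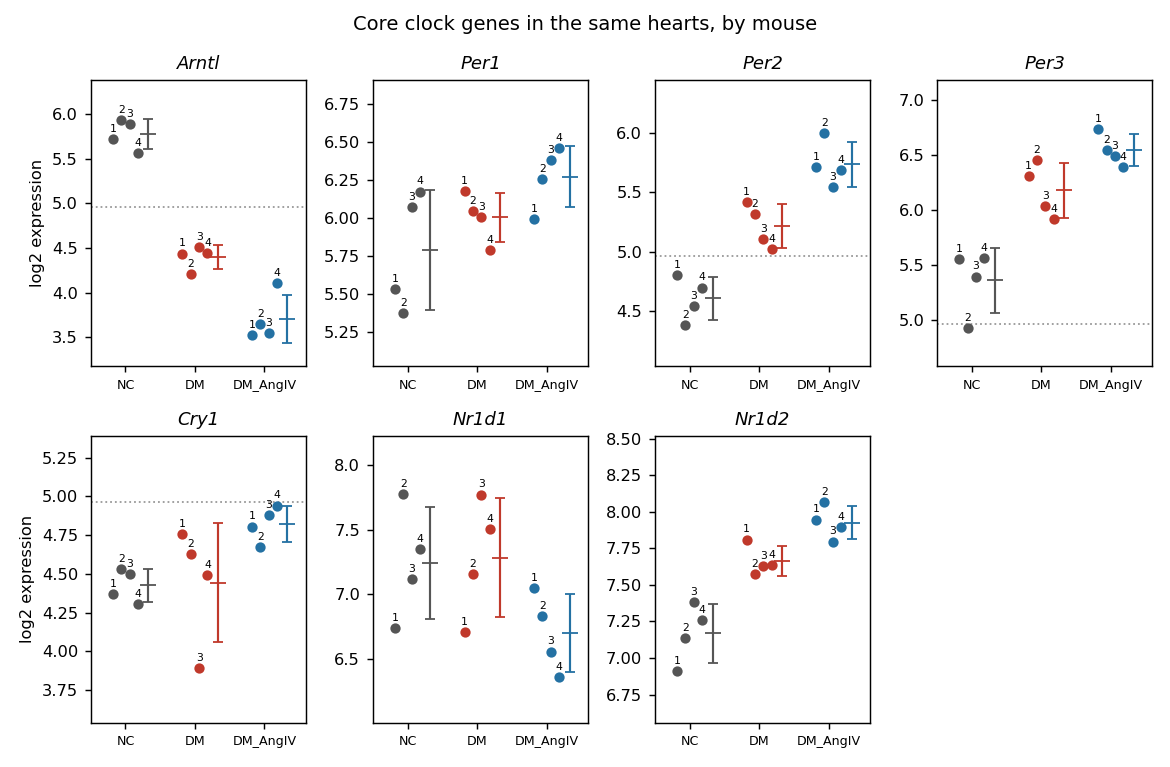
Log2 expression of Arntl, Per1, Per2, Per3, Cry1, Nr1d1 and Nr1d2 in each mouse by group, drawn as the plot of the 8 output factors, with a dotted line at 4.96. The 4 NC points of Arntl lie above all 8 diabetic points, and those of Per2 and Nr1d2 lie below them.

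Genes reported elsewhere to respond to these factors were read from lists. Of 8 measured targets of PAR bZIP factors described in liver or brain, 0 were called by limma in any comparison. Ppara, the fatty acid receptor, had −0.18 and Abcb1a, a drug exporter, 0.17 in DM against NC (limma adjusted p = 0.743 and 0.789). Of the 8, 4 (Nr1i3, Cyp2b10, Cyp2a5 and Cyp7a1) were above background on at most 1 array, so the list rests on the other 4 in heart, namely Pdxk, Alas1, Ppara and Abcb1a.

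Of 7 E-box driven outputs, 1 rose in DM_AngIV against NC, the mitotic kinase Wee1 (0.86; limma adjusted p = 0.0102), and in DM against NC 7 of 7 were above 0 with 0 called. There Wee1 had 0.41 and Usp2, a deubiquitinase, had 0.47 (limma adjusted p = 0.373 and 0.372). Of 12 clock-controlled genes described in heart, 3 rose in DM_AngIV against NC. They were the triglyceride synthase Dgat2 (0.57), the PI3-kinase subunit Pik3r1 (0.87) and the Z-disc protein Tcap (0.78; limma adjusted p = 0.0207, 0.0218 and 0.0228). In DM against NC 0 of the 12 were called, with values of 1.48 for the uncoupling protein Ucp3 and 1.41 for the pyruvate dehydrogenase kinase Pdk4 (limma adjusted p = 0.308 each).

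Of 8 targets of REV-ERB and ROR receptors, a list that holds Nfil3 itself, 2 fell in DM_AngIV against NC, Arntl and Clock, and 0 rose. Of the other 6, 5 (Npas2, Cry1, E2f8, Insig2 and Elovl3) were above background on at most 1 array, and the last is Nfil3. Clock had −0.39 in DM against NC (limma adjusted p = 0.247). In DM_AngIV against DM, limma called 0 genes of any of these lists.

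Glucocorticoid-induced genes were counted beside the members because Per1 and several output genes respond to the hormone. Of 17 such genes, 5 rose and 1 fell in DM_AngIV against NC. Those higher were the receptor chaperone Fkbp5 (2.55), the transcription factor Zbtb16 (2.17), the metallothioneins Mt1 (0.70) and Mt2 (1.21) and the sulfotransferase Sult1a1 (1.22), with limma adjusted p between 0.00317 and 0.0466, and the phosphatase Dusp1 was lower (−0.71). In DM against NC 0 were called, with 1.49 for Mt2 and 1.57 for Zbtb16 (limma adjusted p = 0.0843 and 0.0985). The list mean was 7.93, 7.38, 6.96 and 6.84 in DM replicates 1 to 4, 6.44 to 6.93 in NC and 6.94 to 7.58 in DM_AngIV. It was thus highest in DM replicate 1, the DM mouse with the lowest Dbp, Ciart, Bhlhe40 and Bhlhe41 and the highest Nfil3. Among DM mice that replicate also had the highest mean of macrophage and monocyte markers (6.70) and of endothelial markers (7.45). Fibroblast and atrial marker means were highest in DM replicate 2. The part of any of these in the values of the members was not tested.

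With the 3 groups pooled, 7 of the 8 members varied more between mice of a group than most genes. The residual standard deviation was 0.64 for Ciart, 0.50 for Dbp, 0.40 for Bhlhe41, 0.31 for Nfil3 and Rora, 0.29 for Bhlhe40 and 0.27 for Hlf, against a median of 0.16 over the 8850 genes above background on at least 4 arrays. These 7 exceeded the 90th percentile of those genes, 0.26, and only Tef lay below it, at 0.14. Tef was also the member with a call. For Nfil3 and Bhlhe41 the spread was wide only in DM, with standard deviations of 0.51 and 0.66. These were 0.078 and 0.14 in NC and 0.15 and 0.093 in DM_AngIV.

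Some of the members moved with each other from mouse to mouse. Over 12 mice, 10 of the 28 pairs of members correlated at a Benjamini-Hochberg adjusted permutation p below 0.05 (100000 permutations, two-sided), 8 positively and 2 negatively, and 18 pairs, all 7 with Hlf among them, did not pass. The weakest of the 10 had a Pearson's r of 0.69 in size, which 3.68% of all pairs of the 8850 genes above background on at least 4 arrays reached. Hlf against Rora passed by Spearman's rho alone (rho = 0.83, adjusted permutation p = 0.0100). Its Pearson's r was 0.62 (adjusted permutation p = 0.0660). Both negative pairs held Nfil3. Nfil3 against Bhlhe41 had Pearson's r = −0.88 (permutation p = 0.00046, adjusted 0.0129) and Spearman's rho = −0.76, and Nfil3 against Dbp had r = −0.70 (permutation p = 0.00837, adjusted 0.0260) and rho = −0.74. With the group means removed these were −0.90 and −0.79, and without the 2 mice farthest from the median −0.73 and −0.71. For each pair that median was of the gene standing first in the opening list, here Nfil3 and then Dbp. Mice extreme in the other gene could remain.

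**Figure D4:**
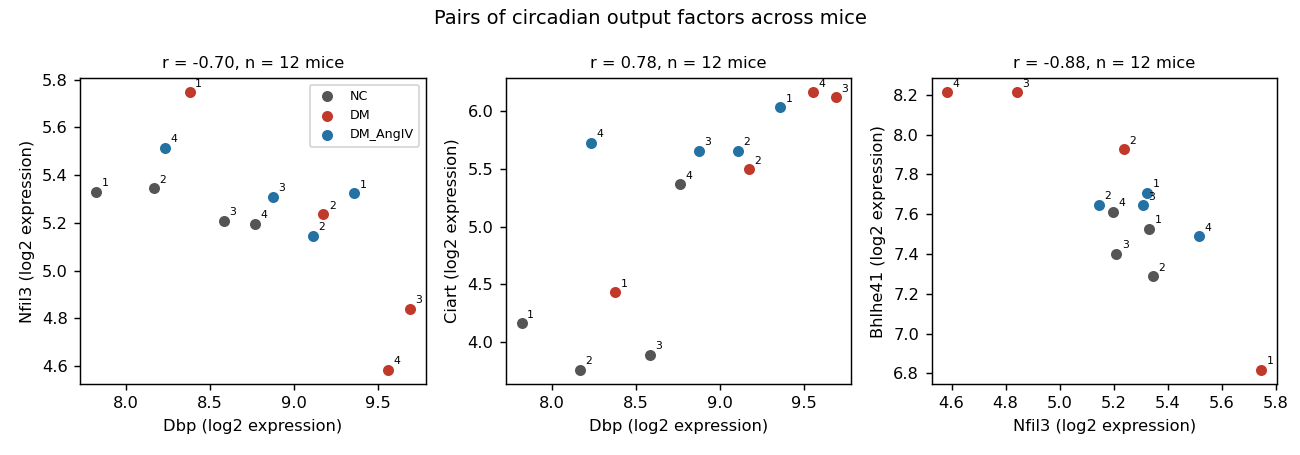
Log2 expression of one member against another in 12 mice, coloured by group and numbered by replicate. The mice with the highest Bhlhe41 and Dbp, DM replicates 3 and 4, have the lowest Nfil3, which is not above background there. DM replicate 1 has the highest Nfil3 and the lowest Bhlhe41.

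All 6 pairs among Dbp, Ciart, Bhlhe40 and Bhlhe41 were positive and passed. Dbp against Bhlhe41 had r = 0.76 (permutation p = 0.00294, adjusted 0.0160) and rho = 0.88. Its r was 0.74 with the group means removed and 0.81 without the 2 mice farthest from the median of Dbp. Dbp against Ciart had r = 0.78 (permutation p = 0.00316, adjusted 0.0160) and rho = 0.78, and 0.71 with the group means removed. Bhlhe40 against Bhlhe41 had r = 0.82 (permutation p = 0.00098, adjusted 0.0137). Tef correlated with Ciart (r = 0.77) and Rora (r = 0.69; adjusted permutation p = 0.0160 and 0.0375). With the group means removed these were 0.27 and 0.17, so over the 12 mice those pairs rest largely on the difference between groups. Without the DM mice as well, they were 0.087 and 0.50, so for Rora the low value came with the DM mice included.

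Fewer pairs passed when the group means or some mice were removed. With group means removed 3 pairs passed (Dbp with Nfil3, Ciart with Bhlhe41, Nfil3 with Bhlhe41). Without the 2 farthest mice 2 passed, and without the arrays with atrial signal 1, Dbp with Bhlhe41 (r = 0.90 over 7 mice). With group means removed and without the 4 DM mice, an alternative added after the wide spread of DM was seen, 0 pairs passed (smallest adjusted permutation p = 0.389). That leaves 8 mice. The 10 values kept their sign there. Dbp against Nfil3 (−0.78) and Ciart against Bhlhe41 (0.76) stayed close to those of all 12 mice. Nfil3 against Bhlhe41 shrank from −0.90 to −0.54 and Bhlhe40 against Bhlhe41 from 0.79 to 0.37. Dbp shrank from 0.71 to 0.44 against Ciart, from 0.71 to 0.415 against Bhlhe40 and from 0.74 to 0.54 against Bhlhe41. Ciart shrank from 0.79 to 0.59 against Bhlhe40 and from 0.27 to 0.087 against Tef. Tef against Rora grew from 0.17 to 0.50. A single group of 4 mice is too small for a correlation of its own. The points share tissue, array scaling and any common hour of sampling.

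**Figure D5:**
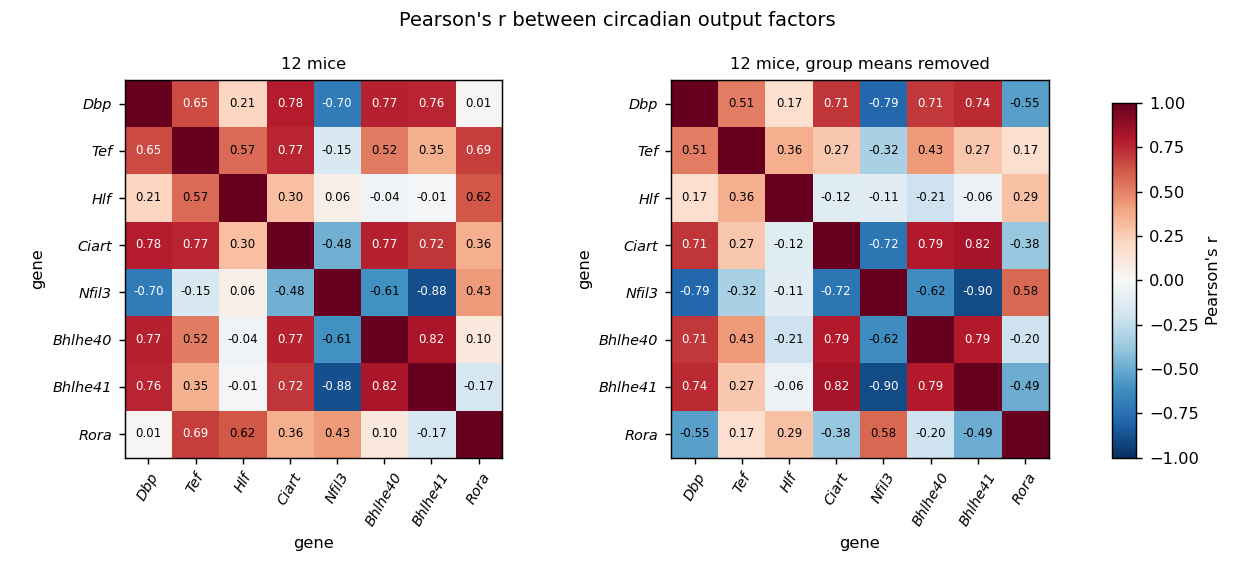
Pearson's r between the 8 members over 12 mice, left as measured and right with group means removed, on a colour scale from −1 to 1 with each value printed. Nfil3 is negative against Dbp, Ciart, Bhlhe40 and Bhlhe41 in both panels, while Tef against Ciart drops from 0.77 to 0.27.

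The genes whose pattern was most like that of Dbp over the 12 mice, among 8657 named genes above background on at least 4 arrays, were Habp4 (r = 0.89), Adam10 (0.84) and Hnrnpa0 (0.84). For Nfil3 they were Antkmt (r = 0.89), Mkrn1 (0.88) and Abcc5 (0.86), with rho of 0.76, 0.53 and 0.64. These are the highest of many values and are given without a test.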

How the data were processed

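Expression was measured in myocardium of 12 mice, 1 array each, with 6 µg of RNA used for labelling per the labels. The authors deposited 1 table of log2 expression values, made with RMA per the submitters' processing notes, a method of background correction, quantile normalization and summary over probes. Its version and annotation were not given in the sources used here. Quantile normalization would hide a change shared by most genes. Of 29129 probe sets, 19572 carried 1 gene symbol, 0 carried several, and all 19572 matched the reference gene table by gene ID. For 55 symbols with several probe sets the one with the highest mean was used, which left 19505 genes. Array medians lay between 4.57 and 4.61, and 42.8% to 43.3% of genes were above background. The number of arrays limits the precision.

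All 12 arrays entered 1 linear model with 3 group means (lmFit, then eBayes; limma 3.58.1, R 4.3.3), and p-values were adjusted with Benjamini-Hochberg over all genes. All comparisons came from this model, with two-sided tests, and the script was tested on simulated data. A fold against a group not above background was taken against 4.96 and is a lower bound. Exact permutation tests and correlations were computed in Python 3.11.15 with numpy 2.4.6, and figures were drawn with matplotlib 3.10.9. Replicate numbers were not used to pair the mice in the main model. The deviations from group means of same-numbered mice correlated at −0.12 to 0.28, and 3 of 12 pairs exceeded 0.1. Differently numbered mice correlated at −0.26 to 0.25, and 10 of 36 pairs exceeded 0.1. Such correlations cannot exclude a pairing. P-values measure the spread between mice, as the series design states 4 mice in each group.

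The members, gene lists and alternatives were chosen with earlier results of these data known. The rule for named genes took all 8 members, 7 clock genes (Arntl, Per1, Per2, Per3, Cry1, Nr1d1 and Nr1d2), from each list every gene called, otherwise the 2 with the smallest p in DM against NC, and the 3 genes most like Dbp and most like Nfil3. Marker lists of cell types were used for their levels only. Lymphocyte markers were above background on 0 of 12 arrays. The fibroblast collagen Col3a1 was lower in DM_AngIV against NC (−1.17; limma adjusted p = 0.0128) and in all diabetic mice against NC (−0.81; 0.0493), and the fatty acid binding gene Fabp4 was higher in all diabetic mice against NC (0.42; limma adjusted p = 0.0349). No other marker of these lists was called.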

Additional observations from a re-analysis of the deposited data

How the results depend on the processing

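Each result was recomputed with a replicate block, with other arrays in the model, without dim genes, with other scaling, array weights and priors, with the mean of the probe sets, and with each mouse left out. For all diabetic mice against NC, the model with only the arrays of the groups compared is the same model. The replicate block gave 115 called genes in DM_AngIV against NC in place of 198 and 40 in all diabetic mice against NC in place of 123, with Tef called in both, and it changed no member's call. In DM against NC, 3 genes were called, and 20 without dim genes, 28 with the trend and robust prior, 17 at a threshold of 0.1 and 0 without the arrays with atrial signal. In DM_AngIV against NC the counts were 567, 514, 509 and 50 in that order, and in all diabetic mice against NC 366, 362, 320 and 1, with 71 under array weights and 189 with the atrial covariate. The members called in DM_AngIV against NC were 1, and 2 with only the arrays of the groups compared, 3 without dim genes, 2 with the trend and robust prior, 3 at a threshold of 0.1 and 0 without the arrays with atrial signal. In all diabetic mice against NC they were 1, and 2 without dim genes, 2 at a threshold of 0.1 and 0 without the arrays with atrial signal. Ciart, Rora or both were the added members. Without dim genes, those above background on fewer than 4 arrays, only 8850 genes were tested. Tef passed that filter through diabetic arrays alone and Ciart with 1 NC array, so their calls there are not added support. With only the arrays of the groups compared, 172 genes were called higher and 73 lower in DM_AngIV against NC. Omitting the atrial arrays leaves 7 arrays and 1 DM array.

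With each mouse left out, the genes called ranged from 2 to 30 in DM against NC, 0 to 5 in DM_AngIV against DM, 81 to 167 in DM_AngIV against NC and 16 to 231 in all diabetic mice against NC, and the members called from 0 to 2 in each of the last 2 comparisons. The 30 came without DM replicate 4, the 5 without DM_AngIV replicate 2, the 81 without NC replicate 2, the 16 without NC replicate 3 and the 231 without DM replicate 4. The correlated pairs numbered 10, and 3 with group means removed, 2 without the 2 farthest mice, 1 without the arrays with atrial signal, 0 with group means removed and without the DM mice and 11 by Spearman's rho.

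The following signs turned. In DM against NC, Hlf was −0.013 without the arrays with atrial signal and ranged from −0.033 to 0.15 with each mouse left out, and Nfil3 ranged from −0.38 to 0.0045. In DM_AngIV against DM, Ciart was −0.17 with the atrial covariate and −0.35 without the arrays with atrial signal, and ranged from −0.16 (without DM replicate 1) to 0.42. Tef was −0.052 there without the arrays with atrial signal, and Bhlhe40 ranged from −0.28 to 0.027. Nfil3 ranged from −0.011 to 0.11 in DM_AngIV against NC and from −0.17 to 0.029 in all diabetic mice against NC. The cause was not tested. Signal over background limits Tef, Hlf and Ciart, which were near it in NC. It also limits Hlf and Nfil3 in DM, each above background on 2 of 4 arrays.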
